A study of Homo sapiens with 12 samples.

Results

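The family of vascular endothelial growth factors (VEGF) and their receptors was examined in Ishikawa cells, an established human endometrial adenocarcinoma line, on Affymetrix U133 Plus 2.0 arrays. The array reads a gene through probe sets, each a group of short probes, and many genes have several. All probe sets that the platform annotation assigns to VEGFA, VEGFB, VEGFC, PGF, FLT1, KDR, FLT4, NRP1 or NRP2 were taken, whatever their values. This gave 33 of the 54613 probe sets that are not controls, for 9 of 19775 genes. VEGFA had 4 probe sets, VEGFB 1, VEGFC 1 and PGF 2, so that 8 probe sets read ligands. The other 25 read receptors and co-receptors, with 6 for FLT1, 1 for KDR, 3 for FLT4, 4 for NRP1 and 11 for NRP2. None of the 33 was listed with a second gene.

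The 12 arrays form 4 groups of 3, which the labels call biological replicates of 1 cell line. Metastin-10 is a short active peptide from the product of KISS1, also known as kisspeptin-10, and GPR54 is its receptor, encoded by KISS1R. Cells were transfected with an siRNA for 48 h and then given a peptide for 24 h, so every group, the controls included, had both a transfection and a peptide. The groups were GPR54 siRNA with 10 µM metastin-10, GPR54 siRNA with control peptide, negative control siRNA with 10 µM metastin-10, and negative control siRNA with control peptide. The stated aim was to learn what metastin-10 alters and whether this runs through GPR54.

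VEGF ligands are secreted dimers that drive the growth and permeability of vessels. VEGFA acts mainly through the receptor tyrosine kinase KDR (VEGFR2), FLT1 (VEGFR1) binds VEGFA, VEGFB and placental growth factor (PGF), and FLT4 (VEGFR3) binds VEGFC and is known for lymphatic vessels. NRP1 and NRP2 are neuropilins, co-receptors that bind VEGF ligands and class 3 semaphorins. In endometrium, epithelial and stromal cells make VEGFA, while the receptor tyrosine kinases are known mainly from endothelium.

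Levels are log2 RMA values, a scale on which a difference of 1 is a doubling of signal. No detection calls were used, so the background level remains undetermined, and the level of one probe set cannot be set against that of another. The array medians ran from 5.13 to 5.22, and mean levels of all probe sets had quartiles of 3.64, 5.16 and 7.34. In bulk RNA, fewer cells of a type and less RNA per cell cannot be told apart. The 10 markers of endometrial epithelium had a median mean level of 11.5, with EPCAM at 13.05 and KRT18 at 13.99, and PGR was the lowest at 4.38. Stromal markers ran from 2.56 for LUM to 9.84 for COL1A1. By the limit above, the levels of these lists do not rank cell types. The 11 endothelial markers lay between 3.24 for TIE1 and 6.97 for VWF, and 0 of the 11 passed the test in any comparison. At most 0.966% of all genes passed in any direction of any comparison, so this count says little about these markers.

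The siRNA label was checked on its target first. KISS1R averaged 9.43 ± 0.16 with metastin-10 and 9.42 ± 0.05 with control peptide under the GPR54 siRNA label, and 8.40 ± 0.04 with metastin-10 and 9.28 ± 0.13 with control peptide under control siRNA (SD, n = 3 each). In the control peptide arrays KISS1R was therefore not lower under the GPR54 siRNA label than under control siRNA (difference 0.14, 95% interval -0.07 to 0.35). The siRNA is named below as the label gives it, and every direction drawn from it carries this limit. With control siRNA, KISS1R itself fell by 0.88 with metastin-10 (limma, Benjamini-Hochberg adjusted p = 0.00213).

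VEGFA was lower after metastin-10 in cells with control siRNA, and it was the only gene of the family with a probe set past the threshold of an adjusted p of 0.05 in any of the 5 comparisons of the limma fit. The brightest VEGFA probe set, 210512_s_at, read 10.50, 10.66 and 10.52 on the control siRNA arrays with metastin-10, against 11.35, 11.41 and 11.16 with control peptide (replicates 1, 2 and 3). Probe set 212171_x_at read 8.62, 8.59 and 8.53 with metastin-10, against 9.08, 9.17 and 9.02 with control peptide. Probe set 211527_x_at read 7.21, 7.46 and 7.57 with metastin-10, against 8.04, 8.18 and 8.22 with control peptide. In each of these, every metastin-10 array lay below every control peptide array. The remaining probe set, 210513_s_at, read 7.02, 7.02 and 7.41 with metastin-10, against 7.43, 7.60 and 7.92 with control peptide. Its groups did not overlap either, but replicate 3 with metastin-10 (7.41) came close to replicate 1 with control peptide (7.43). A fall with no overlap occurred in 8.72% of all probe sets in this comparison.

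On the limma fit, 210512_s_at fell by 0.74 ± 0.11 (SE, 95% interval -0.98 to -0.51, adjusted p = 0.00943), a 1.67-fold lower signal. The difference was -0.74 for 211527_x_at (95% interval -0.96 to -0.51, adjusted p = 0.00715) and -0.51 for 212171_x_at (95% interval -0.70 to -0.31, adjusted p = 0.0289). For 210513_s_at it was -0.50 (95% interval -0.85 to -0.15) and did not pass (adjusted p = 0.284). Thus 3 of the 4 VEGFA probe sets, and 3 of the 33 of the family, fell, where 0.386% of all probe sets did (0.428% in either direction). These 3 read 1 gene on the same arrays, so they are not separate findings about the family. By gene, with the brightest probe set of each, VEGFA alone of the 9 fell, and 0.531% of all genes did. The family was chosen with earlier results of these data known. With the replicate number as a block, 210513_s_at passed as well, at the same difference of -0.50 (limma adjusted p = 0.0128), as it did with replicate 3 as a batch (adjusted p = 0.00603) and in none of the other 19 settings of the fit that were run, the one reported included. With the block the count over all probe sets was 422 in place of 234. With the 4 probe sets averaged on each array, VEGFA differed by -0.62 (95% interval -0.79 to -0.45, limma adjusted p = 0.00361).

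These calls depended on single arrays of the 2 groups more than the differences did. Leaving out each of the 12 arrays in turn kept the difference of 210512_s_at between -0.82 and -0.69. Its adjusted p (limma) was 0.0600 without replicate 1 of control siRNA with metastin-10, 0.0637 without replicate 1 of control siRNA with control peptide, and 0.0711 without replicate 2 of control siRNA with control peptide. For 211527_x_at it was 0.0510 without that same replicate 2 and stayed under the threshold without each of the other 11 arrays. For 212171_x_at it stayed under 0.05 in 5 of 12 and was between 0.0588 and 0.175 in the others, which left out any array of the 2 groups compared or replicate 2 labelled GPR54 siRNA with control peptide.

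**Figure D1:**
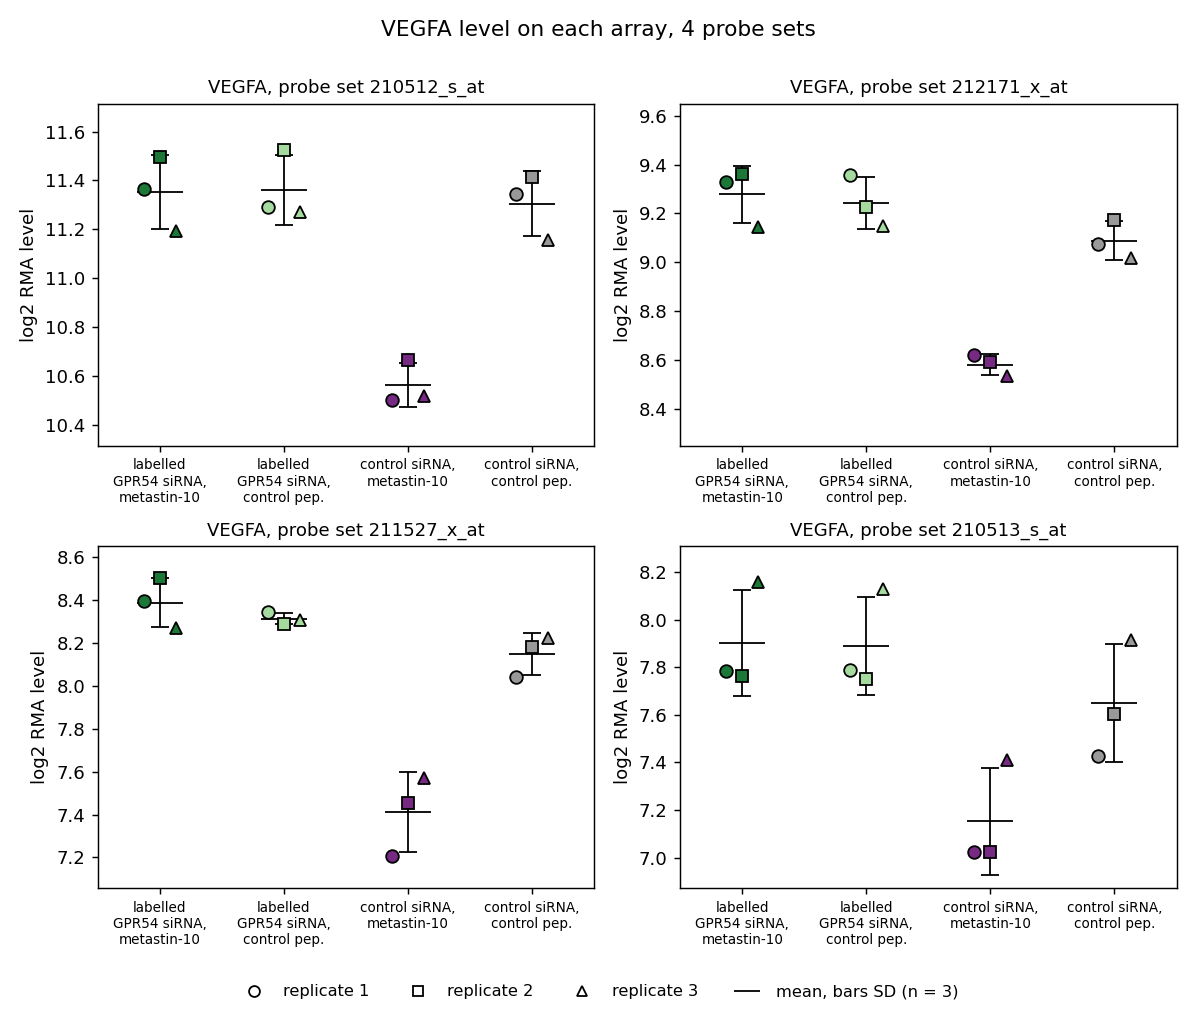
Log2 RMA level of the 4 VEGFA probe sets on each of the 12 arrays, by group, with replicates 1, 2 and 3 as circle, square and triangle, the group mean as a line and the SD as bars (n = 3). In every panel the control siRNA arrays with metastin-10 are the lowest group and overlap no other, while the other groups overlap or lie close together.

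In the GPR54 siRNA-labelled arrays, VEGFA did not separate by peptide. There 210512_s_at read 11.37, 11.50 and 11.19 with metastin-10, against 11.29, 11.52 and 11.27 with control peptide. Probe set 211527_x_at read 8.39, 8.50 and 8.27 with metastin-10, against 8.34, 8.29 and 8.31 with control peptide. The groups overlapped in both. The differences of the 4 probe sets were -0.01, 0.03, 0.07 and 0.01 for 210512_s_at, 212171_x_at, 211527_x_at and 210513_s_at, and the 95% interval for 210512_s_at ran from -0.24 to 0.23. This comparison called 0 of the 33 probe sets and 0 of all 54613 (0.0%) by limma, of which 2.21% had an unadjusted p under 0.05, as 2 of the 33 did.

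Among the arrays with metastin-10, VEGFA was higher in those labelled GPR54 siRNA than in those with control siRNA. The difference was 0.79 for 210512_s_at (95% interval 0.56 to 1.03, limma adjusted p = 0.00493), 0.70 for 212171_x_at (0.50 to 0.89, adjusted p = 0.00306) and 0.98 for 211527_x_at (0.75 to 1.20, adjusted p = 0.000853). For 210513_s_at it was 0.75 (0.40 to 1.10) and missed the threshold (adjusted p = 0.0678). That call was not stable, since 210513_s_at passed in 8 of 21 settings of the limma fit, among them the replicate block (adjusted p = 0.0010), array weights (0.0132) and the fit without replicate 3 of control siRNA with metastin-10 (0.88, adjusted p = 0.0425). Over the 21 settings its difference ran from 0.62 to 0.88 and its adjusted p from 0.000400 to 0.288. In all 4 probe sets each GPR54 siRNA-labelled array lay above each control siRNA array, which 7.76% of all probe sets did. The 3 calls stood in each of the 12 fits that left out 1 array. They are 3 of 33 members, where 0.527% of all probe sets rose (0.579% in either direction). These 3 again read 1 gene on the same arrays, and 0.966% of all genes were higher. This comparison uses the same control siRNA arrays with metastin-10 as the comparison of peptides, so their low VEGFA level enters both, and the label limit above applies.

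Between the siRNA labels in the control peptide arrays, VEGFA differed by 0.06, 0.16, 0.16 and 0.24 for 210512_s_at, 212171_x_at, 211527_x_at and 210513_s_at, and 0 of the 33 members passed, against 0.0531% of all probe sets (29, or 51 with the replicate block). In 211527_x_at the GPR54 siRNA-labelled arrays, at 8.29 to 8.34, all lay above the control siRNA arrays, at 8.04 to 8.22, as in 5.2% of all probe sets. The mean level of 210512_s_at was 11.35 ± 0.15 for metastin-10 and 11.36 ± 0.14 for control peptide under the GPR54 siRNA label, and 10.56 ± 0.09 for metastin-10 and 11.31 ± 0.13 for control peptide under control siRNA (SD, n = 3 each). In this order of levels the 3 higher groups lay within their spread of each other, and the control siRNA arrays with metastin-10 lay below them by more than it.

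Whether the metastin-10 difference itself depends on the siRNA label was tested as an interaction, the difference under the GPR54 siRNA label minus that under control siRNA. It was 0.73 for 210512_s_at (95% interval 0.40 to 1.07), 0.54 for 212171_x_at, 0.81 for 211527_x_at (0.50 to 1.13) and 0.51 for 210513_s_at. None passed, with adjusted p of 0.183, 0.259, 0.0936 and 0.797 by limma, although all 4 had an unadjusted p under 0.05 (0.000386, 0.000953, 9.94e-05 and 0.0444), as did 6.09% of all probe sets. In this test 0 of 33 members and 0.0513% of all probe sets passed (28, or 45 with the replicate block). With the replicate number as a block, 210512_s_at passed at the same value of 0.73 (limma adjusted p = 0.0416) and the other VEGFA probe sets did not (adjusted p of 0.0840 to 0.130). Over the 20 settings that give an interaction, 210512_s_at and 211527_x_at each passed in 3, 212171_x_at in 1 and 210513_s_at in 0.

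The VEGFA probe sets agreed on the direction of every comparison past the threshold. Over the 12 arrays, Pearson's r was 0.95 between 210512_s_at and 212171_x_at, 0.93 between 210512_s_at and 211527_x_at, and 0.95 between 212171_x_at and 211527_x_at. With 210513_s_at it was lower, at 0.67, 0.72 and 0.85 for 210512_s_at, 212171_x_at and 211527_x_at. These are descriptions over shared arrays that include the group differences. Once each array was set against its group mean, r was -0.72 between 210512_s_at and 210513_s_at and -0.75 between 212171_x_at and 210513_s_at, and 0.55 between 210512_s_at and 212171_x_at. For 211527_x_at it was 0.21 with 210512_s_at, 0.16 with 212171_x_at and 0.26 with 210513_s_at. The high r of 211527_x_at over the 12 arrays thus did not hold within groups. In all 4 probe sets the control siRNA arrays with metastin-10 had the lowest mean, and within groups 210513_s_at ran opposite to 210512_s_at and 212171_x_at.

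Replicate 3 stood apart from replicates 1 and 2, upwards in 210513_s_at and downwards in 210512_s_at and 212171_x_at. In 210513_s_at, replicate 3 lay 0.36 to 0.40 above the mean of replicates 1 and 2 in all 4 groups. In 210512_s_at it lay below that mean in all 4 groups, by a difference of -0.24 to -0.07, and in 212171_x_at by -0.20 to -0.07. Probe set 211527_x_at had both signs (-0.18 to 0.24). The 3' minus 5' level of the beta-actin control probe sets, a measure of RNA length, was 0.31 ± 0.04 on the replicate 3 arrays, against 0.77 ± 0.09 on replicate 1 and 0.72 ± 0.05 on replicate 2 (SD, n = 4 each). Its part in the VEGFA values was not tested. Within a replicate number, 210513_s_at differed between metastin-10 and control peptide under control siRNA by -0.41, -0.58 and -0.50, a spread of 0.09 (SD), while its levels spread by 0.22 with metastin-10 and 0.25 with control peptide.

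**Figure D2:**
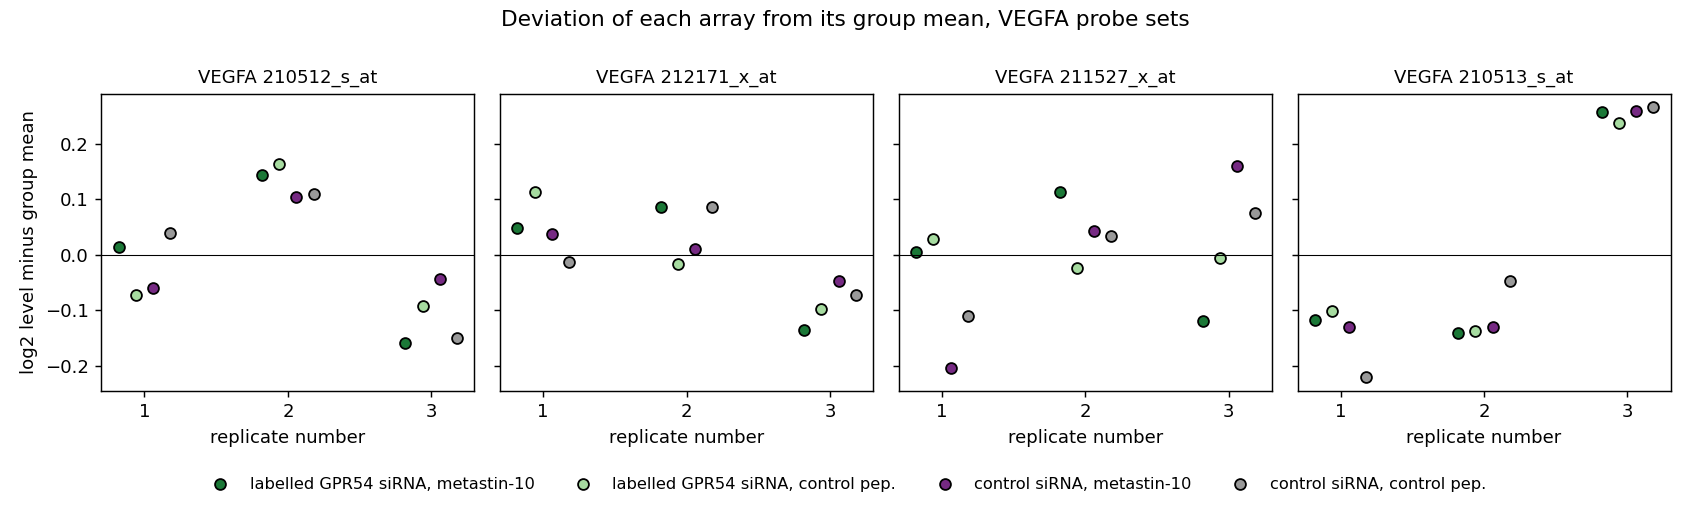
Deviation of each array from its group mean (log2) for the 4 VEGFA probe sets, by replicate number, with 1 point per array coloured by group. The replicate 3 points of 210513_s_at sit together above 0 in all 4 groups, and those of 210512_s_at and 212171_x_at sit below 0.

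The genes whose levels were most like VEGFA were ranked by Pearson's r with 210512_s_at over the 12 arrays, using the brightest probe set of each gene. The first 5 were KLF4 (r = 0.984), EFHD1 (0.976), COL6A1 (0.975), CXCR4 (0.974) and CDKN1C (0.973). With group means removed, r was 0.839, 0.867, 0.704, 0.706 and 0.823 for these genes in the same order. KLF4 is a zinc finger transcription factor, CXCR4 a chemokine receptor and CDKN1C a cyclin-dependent kinase inhibitor. With metastin-10 under control siRNA, KLF4 differed by -0.49, COL6A1 by -0.65, CXCR4 by -0.88 and CDKN1C by -0.77, all past the threshold, and EFHD1 by -0.38, which was not (limma adjusted p = 0.117). KISS1R stood at rank 18 of 19766 genes (r = 0.966). All points share arrays, and r over the 12 arrays includes the group differences. The 5 genes were picked by that r, so their fall with metastin-10 under control siRNA largely follows from the choice. It is no separate result.

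Of the other ligands, none passed the test in any comparison, where at most 0.579% of all probe sets did. VEGFB, a ligand of FLT1, read 7.80, 7.71 and 7.74 with metastin-10 and 7.91, 7.94 and 7.57 with control peptide under the GPR54 siRNA label. Under control siRNA it read 7.39, 7.45 and 7.44 with metastin-10, against 7.44, 7.75 and 7.64 with control peptide. Its mean was lowest for control siRNA with metastin-10, and these arrays overlapped the control siRNA arrays with control peptide. With metastin-10 the GPR54 siRNA-labelled arrays all lay above the control siRNA arrays, as in 7.76% of all probe sets. The difference was -0.19 between the peptides under control siRNA (limma adjusted p = 0.58), and 0.33 between the siRNA labels with metastin-10 (95% interval 0.09 to 0.56, adjusted p = 0.31).

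VEGFC, the main ligand of FLT4, averaged 6.17 ± 0.21 and 6.29 ± 0.08 in the GPR54 siRNA-labelled arrays with metastin-10 and with control peptide, and 6.14 ± 0.08 and 6.16 ± 0.05 in the control siRNA arrays with metastin-10 and with control peptide (SD, n = 3 each). Its difference between peptides under control siRNA was -0.02 (95% interval -0.25 to 0.21). PGF, a ligand of FLT1, was read by a pair of probe sets that did not follow each other (r = -0.28 over the 12 arrays). With control peptide, 215179_x_at read 7.20, 7.33 and 7.42 on the GPR54 siRNA-labelled arrays, against 7.69, 7.61 and 7.55 on the control siRNA arrays. These groups did not overlap, which 4.56% of all probe sets did in this direction, and the difference of -0.31 had an unadjusted p of 0.047 and an adjusted p of 1.0 by limma. For 209652_s_at the same difference was 0.12.

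**Figure D3:**
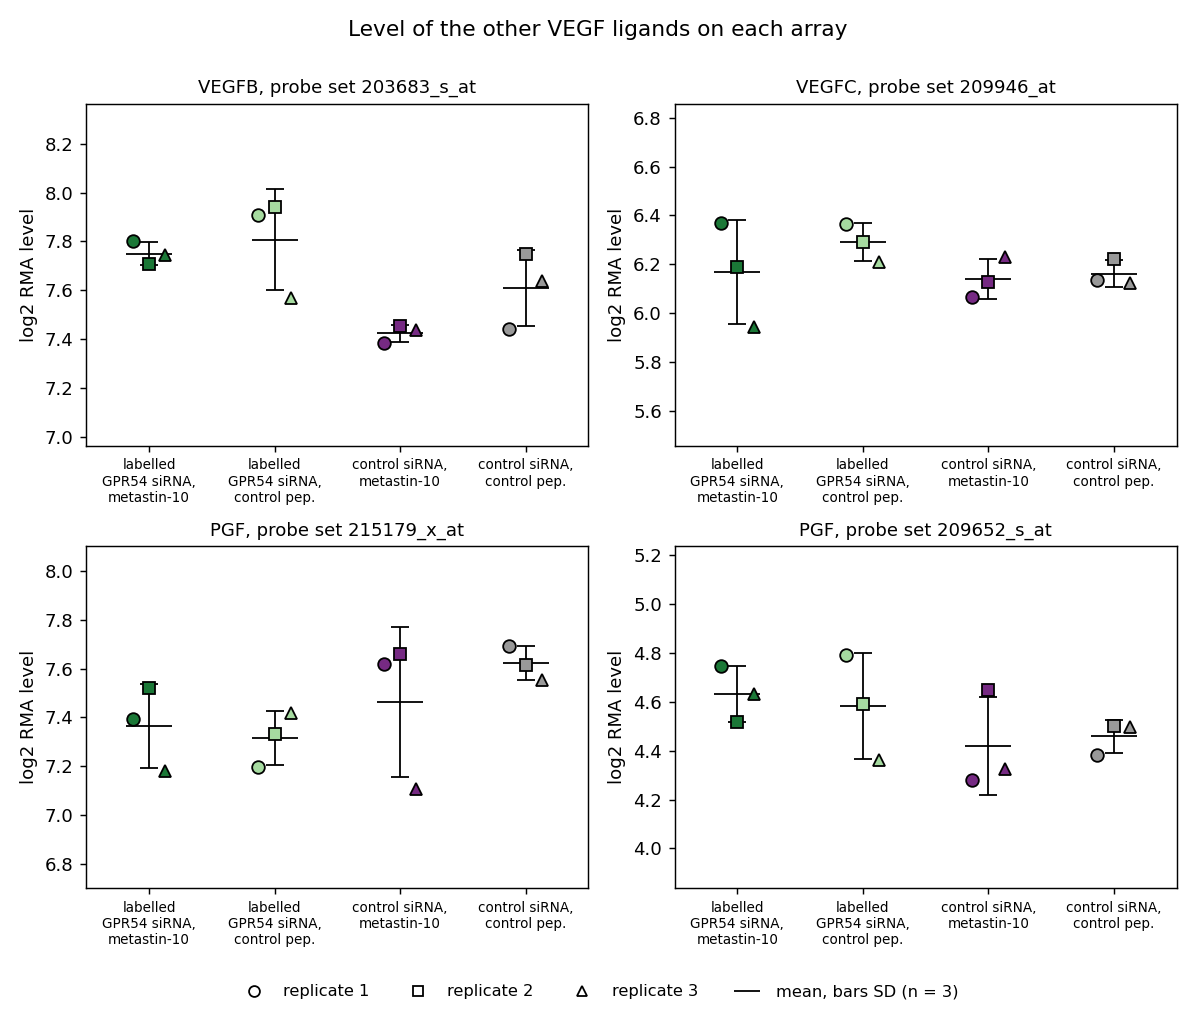
Log2 RMA level of VEGFB, VEGFC and both PGF probe sets on each array, by group, with replicates as circle, square and triangle, the mean as a line and the SD as bars (n = 3). VEGFB is lowest with control siRNA and metastin-10, VEGFC overlaps across groups, and the PGF panels order the groups differently.

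Of the 10 probe sets of the receptor tyrosine kinases, 0 passed the test in any comparison of the fit. At most 0.579% of all probe sets passed in any comparison, so this count does not show that the receptors were unchanged. The single KDR probe set read 2.77, 3.18 and 3.26 with metastin-10 and 3.26, 3.26 and 3.02 with control peptide under the GPR54 siRNA label. Under control siRNA it read 3.36, 2.87 and 2.85 with metastin-10, against 2.88, 2.98 and 2.86 with control peptide. These values lie under the lower quartile of all probe sets, 3.64, and detection calls were not used here. With control peptide the GPR54 siRNA-labelled KDR arrays all lay above the control siRNA arrays, as in 5.2% of all probe sets, by 0.28 (95% interval -0.05 to 0.61, limma adjusted p = 1.0). The 6 FLT1 probe sets ranged from 2.67 to 6.0 over all arrays and the 3 FLT4 probe sets from 2.93 to 5.86. With metastin-10 under control siRNA, the 10 probe sets of FLT1, KDR and FLT4 differed by -0.10 to 0.20 with a median of 0.04, against 0.01 over all probe sets. The smallest adjusted p among them was 0.543 (limma). In 1 of the 10, FLT1 210287_s_at, the groups did not overlap (0.20), where 7.91% of all probe sets were higher in this way. The levels of this probe set, like those of KDR, lay under the lower quartile. For KDR the difference was 0.12 (95% interval -0.21 to 0.45).

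FLT4 229902_at, with levels under the lower quartile of all probe sets (3.64), had the smallest unadjusted p among the kinase probe sets. With metastin-10 it read 2.93, 3.05 and 3.12 on the GPR54 siRNA-labelled arrays, against 3.25, 3.24 and 3.20 on the control siRNA arrays. The groups did not overlap, as in 5.91% of all probe sets in this direction, and the difference was -0.20 (limma adjusted p = 0.455), and the other FLT4 probe sets differed by 0.09 for 210316_at and 0.17 for 234379_at. The probe sets of one receptor did not follow each other. Over the 12 arrays, r ran from -0.45 to 0.56 over the 15 pairs of FLT1 and from -0.35 to 0.29 over the 3 pairs of FLT4, against 0.67 to 0.95 over the 6 pairs of VEGFA.

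NRP1 did not differ past the threshold in any comparison, where at most 0.579% of all probe sets did. Its brightest probe set, 212298_at, averaged 5.73 ± 0.37 and 5.91 ± 0.25 in the GPR54 siRNA-labelled arrays with metastin-10 and with control peptide, and 5.62 ± 0.20 and 5.74 ± 0.20 in the control siRNA arrays with metastin-10 and with control peptide (SD, n = 3 each). With metastin-10 under control siRNA its 4 probe sets differed by -0.12 to 0.15, and r between them ran from -0.38 to 0.14.

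Most NRP2 probe sets had a higher mean with metastin-10 than with control peptide under control siRNA. None passed the threshold, where 0.428% of all probe sets did. Of the 11, 9 had a difference above 0, with a range of -0.14 to 0.44 and a median of 0.20, against a median of 0.01 over all probe sets. In 3 of the 11 the metastin-10 arrays all lay above the control peptide arrays, as in 7.91% of all probe sets. Probe set 223510_at read 4.89, 4.93 and 5.07 with metastin-10, against 4.40, 4.33 and 4.83 with control peptide, a difference of 0.44 (95% interval 0.17 to 0.71, limma adjusted p = 0.209). Replicate 3 of the control peptide group stood near the metastin-10 arrays, and without it the difference was 0.60 (adjusted p = 0.0485). With replicate 3 as a batch it was 0.44 and also passed (adjusted p = 0.0415). It passed in these 2 of 20 settings and missed in the other 18, with an adjusted p of 0.0561 under the replicate block and 0.654 without replicate 2 of control siRNA with control peptide (0.34). Probe set 214632_at read 3.94, 4.20 and 4.18 with metastin-10, against 3.82, 3.77 and 3.86 with control peptide, a difference of 0.29 (adjusted p = 0.348). The brightest NRP2 probe set, 210841_s_at, differed by 0.10 (adjusted p = 0.777), and its groups overlapped. The probe sets read 1 gene on the same arrays and are not replicates, and r between them ran from -0.54 to 0.65 over 55 pairs with a median of 0.12. Averaged over the 11 probe sets, NRP2 differed by 0.18 (95% interval 0.03 to 0.33, limma adjusted p = 0.378).

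NRP2 1555468_at had peptide differences of opposite sign under the siRNA labels. On the GPR54 siRNA-labelled arrays it read 4.51, 4.32 and 4.53 with metastin-10, against 4.80, 4.67 and 4.63 with control peptide. With control siRNA it read 5.05, 4.73 and 4.75 with metastin-10, against 4.33, 4.53 and 4.48 with control peptide. Neither pair of groups overlapped, and in the GPR54 siRNA-labelled pair 2.57% of all probe sets were lower in this way. The differences were -0.25 under the GPR54 siRNA label and 0.40 under control siRNA, and the interaction was -0.64 (95% interval -0.97 to -0.32), which did not pass (limma adjusted p = 0.265). Across the array, 258 probe sets (0.472%) had groups that separated in opposite directions in this way. Over the 11 NRP2 probe sets, which read 1 gene on the same arrays, the interaction was below 0 in 10. Its median was -0.22, against -0.01 over all probe sets, and 228699_at was the exception at 0.28. Averaged over the 11, the NRP2 interaction was -0.22 (95% interval -0.43 to -0.01, limma adjusted p = 0.798). NRP2 210842_at had the largest fall of the family between the peptides under the GPR54 siRNA label, at -0.33, and did not pass. It read 3.13, 3.36 and 3.22 with metastin-10, against 3.49, 3.67 and 3.52 with control peptide. These groups did not overlap, as in 2.57% of all probe sets in this direction.

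**Figure D4:**
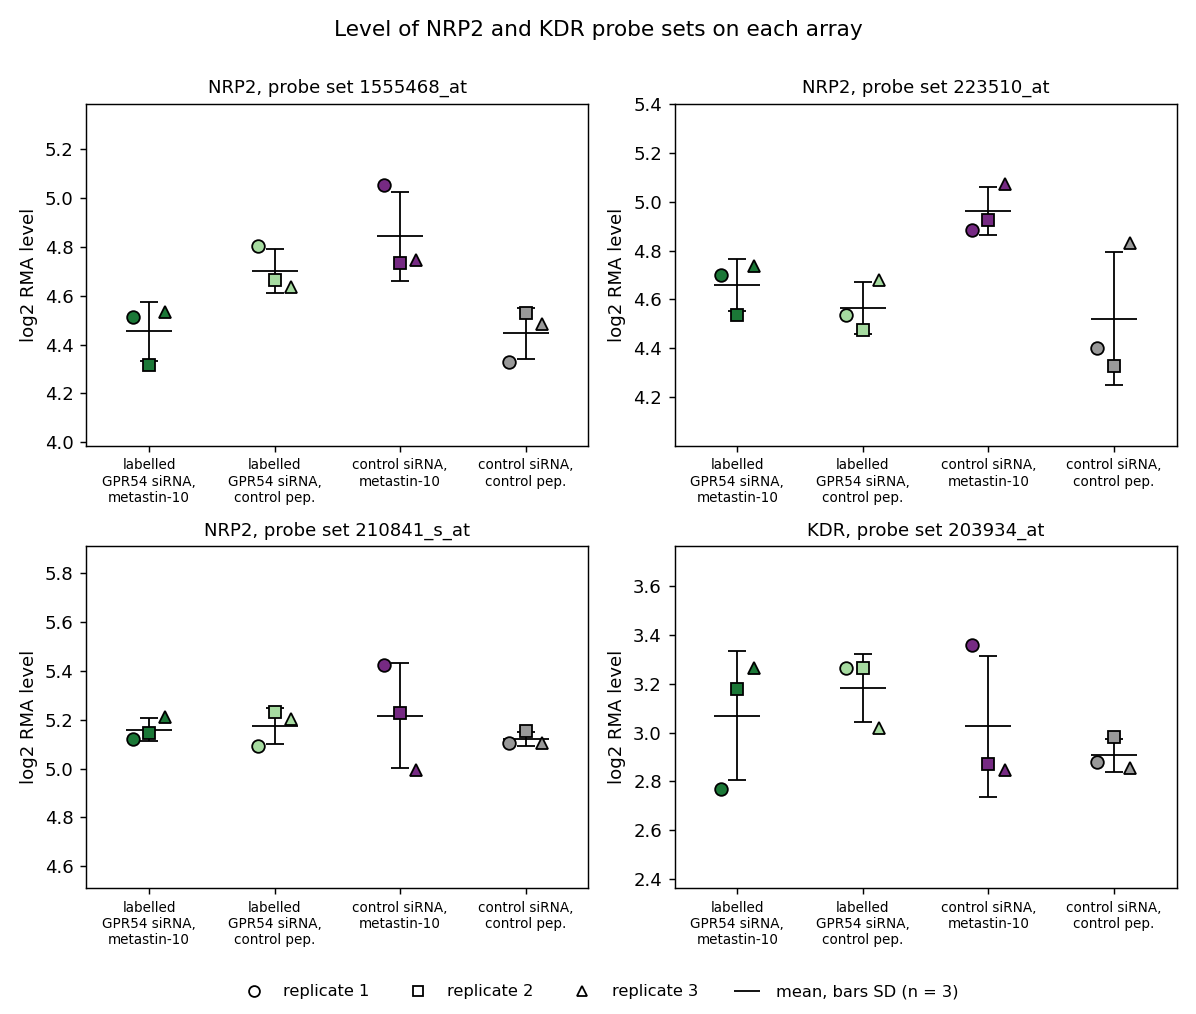
Log2 RMA level of 3 NRP2 probe sets and the KDR probe set on each array, by group, with replicates as circle, square and triangle, the mean as a line and the SD as bars (n = 3). In 1555468_at and 223510_at the control siRNA arrays with metastin-10 are above those with control peptide, while these 2 groups overlap in 210841_s_at and KDR.

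**Figure D5:**
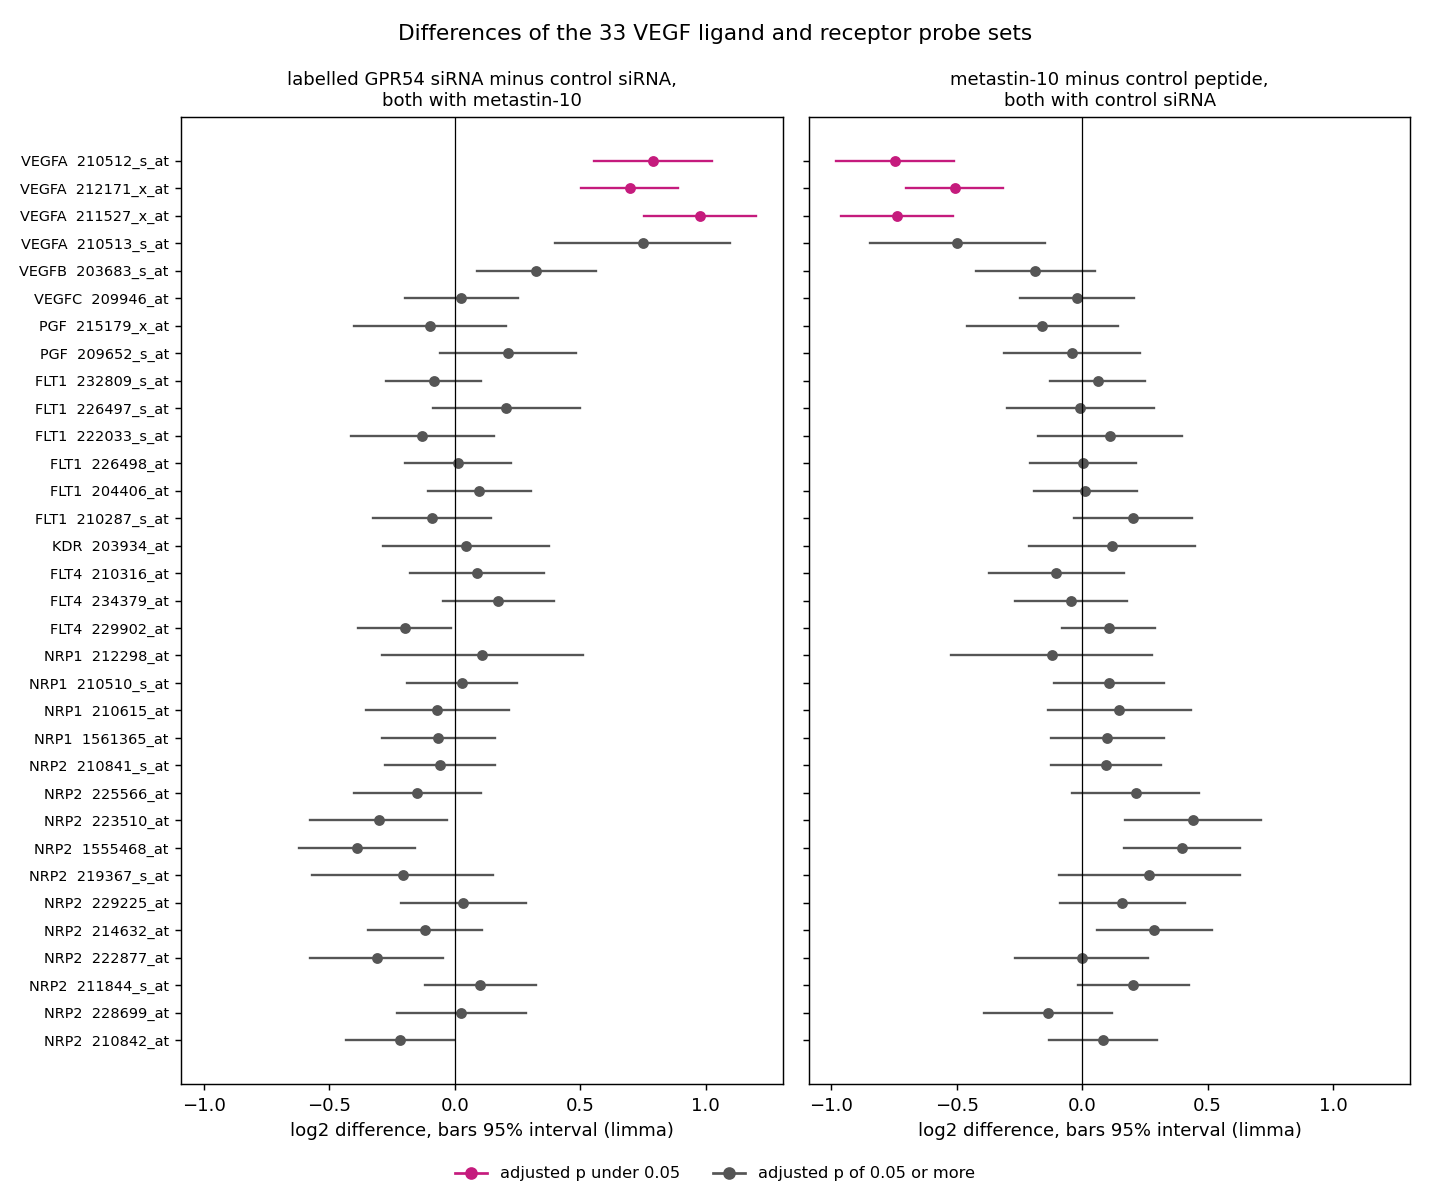
Log2 difference with its 95% interval for each of the 33 probe sets, for the GPR54 siRNA label minus control siRNA with metastin-10 (left) and for metastin-10 minus control peptide under control siRNA (right), in magenta for an adjusted p under 0.05. Only VEGFA probe sets are magenta, 3 in each comparison, above 0 for the siRNA label and below 0 for the peptide.

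Outside VEGFA, the smallest adjusted p by limma over the other 29 probe sets was 0.179 for the peptides under control siRNA, 0.187 for the siRNA labels with metastin-10, 0.974 for the siRNA labels with control peptide and 0.265 for the interaction. Their unadjusted p was under 0.05 in 3, 6, 3 and 2 of the 29, against 10.6%, 10.1%, 4.25% and 6.09% of all probe sets in these comparisons. For the peptides under the GPR54 siRNA label, the smallest adjusted p of the 29 was 0.999997 (limma). There 2 of the 29 had an unadjusted p under 0.05, against 2.21% of all probe sets.

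Other genes of the pathway were counted from 5 lists, with the brightest probe set standing for each gene. Over all 19775 genes, 15 rose (0.0759%) and 105 fell (0.531%) with metastin-10 under control siRNA, and 191 were higher (0.966%) and 14 lower (0.0708%) in the GPR54 siRNA-labelled arrays among those with metastin-10. Of 29 measured genes of VEGF receptor signalling, PTGS2, the inducible prostaglandin synthase, was the one that changed with metastin-10 under control siRNA. It averaged 5.32 with metastin-10, against 5.82 with control peptide, and fell by 0.50 (limma adjusted p = 0.0478). The median difference of the list was -0.04, against 0.01 over all genes. Of 13 neuropilin ligands and plexins, 0 passed in any comparison, and SEMA3B, a semaphorin, differed by 0.37 with metastin-10 under control siRNA (adjusted p = 0.374). Of 18 related growth factors and receptors, 0 passed in any comparison, and PDGFRA, a receptor of platelet-derived growth factors, differed by 0.33 in the same comparison (adjusted p = 0.299).

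Of 15 genes of VEGF processing and release, ADAMTS1, a secreted protease known to bind VEGFA, was the one past the threshold, opposite in direction to VEGFA. With control siRNA it averaged 8.46 with metastin-10, against 7.98 with control peptide, and rose by 0.47 (limma adjusted p = 0.0434). With metastin-10 it averaged 7.96 in the GPR54 siRNA-labelled arrays, against 8.46 with control siRNA, and fell by 0.50 (adjusted p = 0.0251). Of 18 regulators of VEGFA transcription and mRNA, EGLN3, an oxygen-sensing prolyl hydroxylase that marks HIF1A for breakdown, was the one past the threshold. With control siRNA it averaged 7.33 with metastin-10, against 8.0 with control peptide, and fell by 0.67 (adjusted p = 0.0372). With metastin-10 it averaged 8.35 in the GPR54 siRNA-labelled arrays, against 7.33 with control siRNA, and rose by 1.02 (adjusted p = 0.00221). The median of the list was -0.09 between the peptides under control siRNA. In the interaction, in metastin-10 against control peptide under the GPR54 siRNA label, and in the siRNA labels with control peptide, 0 genes of the 5 lists passed. Of all genes, 0.0961% were higher and 0.0101% lower in the interaction, and 0.0% passed in the others. These counts therefore say little about the lists.

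Markers of the labelled cell type moved with VEGFA in part. KRT19, an epithelial keratin, averaged 11.79 with metastin-10, against 12.26 with control peptide, under control siRNA, and fell by 0.48 (limma adjusted p = 0.009). Among the arrays with metastin-10, KRT19 was higher by 0.59 and MUC1, an epithelial mucin, by 0.57 in those labelled GPR54 siRNA. The other 8 epithelial markers, EPCAM and CDH1 among them, did not pass, nor did the 7 stromal and 4 measured leukocyte markers. At most 0.966% of all genes passed in any direction of any comparison. The part of these markers in the VEGFA difference was not tested.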

How the data were processed

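Per the submitters' processing notes, the values the authors deposited are log2 levels from RMA. This method corrects background, brings all arrays to one distribution (a shift shared by most genes is lost) and summarises the probes of a set. Its software is not given in the sources used here. Detection calls were not used here. Names came from the platform annotation, with symbols checked against Entrez identifiers (0 changed). Of the 54613 probe sets, 41091 had 1 gene, 1801 several and 11721 none in that annotation. Probe sets ending in _x_at may bind related transcripts.

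The fit was limma 3.58.1 (R 4.3.3) on 4 group means over the 12 arrays, without a filter and without the 62 control probe sets. Tests were 2-sided, with p adjusted by Benjamini-Hochberg over the 54613 probe sets of a contrast (threshold 0.05). Gene means entered that fit as added rows. Precision is limited by the number of arrays, and the median half-width of the 95% interval was 0.25. In simulated data on 54613 probe sets for the peptides under control siRNA, the fit found 84% of changes of 1 and 27% of changes of 0.5 (log2), and 5 of its 116 calls were false. The simulated arrays were drawn independently, without the replicate 3 shift of the real arrays, so these rates may not hold for the real data.

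Members and gene lists were chosen with earlier results of these data known. Named genes are all members, KISS1R, the list genes past the threshold (at most 4 with the smallest p) or otherwise those with the smallest p, and the 5 genes most like VEGFA. The lists were VEGF receptor signalling, neuropilin ligands and plexins, related growth factors, VEGF processing and release, VEGFA transcription and mRNA regulators, and markers of endothelium, endometrial epithelium, stromal fibroblasts and leukocytes.

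Replicates are numbered 1 to 3 in each group, without a statement that numbers are shared. With group means removed, same-number correlations were 0.17 to 0.44 for the peptides under control siRNA and 0.26 to 0.52 under the GPR54 siRNA label. They were 0.11 to 0.54 for the siRNA labels with control peptide and -0.15 to 0.26 with metastin-10. Some arrays of unlike number were as close. Under control siRNA, replicate 2 with metastin-10 had r = 0.29 with replicate 1 of control peptide, against 0.17 with replicate 2. Except for the siRNA labels with metastin-10, replicate 3 correlated negatively with replicates 1 and 2. Deviations from a group mean cancel out within the group, so a positive same-number correlation brings negative ones with it. The negative sign is therefore no separate evidence on pairing. Pairing by number was therefore not settled, and the reported fit leaves the number out. Results with the number as a block are given beside it. The labels say no more of the replicates than biological, so p-values measure the spread between these arrays.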

Additional observations from a re-analysis of the deposited data

Results flagged for a closer look

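NRP2 1555468_at stood out because metastin-10 separated its arrays one way under the GPR54 siRNA label and the other way under control siRNA, with an interaction of -0.64 that did not pass the test (limma adjusted p = 0.265). The same value of -0.64 arises for the siRNA labels compared within each peptide, where the difference was -0.39 with metastin-10 and 0.25 with control peptide, and 258 probe sets (0.472%) separated in opposite directions by peptide.

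KISS1R, the target of the siRNA, had an interaction of 0.89 that lay at the threshold (limma adjusted p = 0.05, just under it before rounding). Its metastin-10 difference was 0.01 under the GPR54 siRNA label and -0.88 under control siRNA.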

How the results depend on the processing

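In 20 alternative settings of the limma fit no called value changed sign. Counts over all probe sets moved most. For the peptides under control siRNA (234) they were 495 with array weights, 77 with only the 2 groups, 532 with replicate 3 as a batch, 422 with the replicate block and 368 with a variance trend. For the siRNA labels with metastin-10 (316) they were 2016, 57, 602, 504 and 480 under these settings in the same order, and 597 with only probe sets at or above the median level. For the siRNA labels with control peptide (29) they were 130, 9, 87 and 51 for the first 4 settings, 10 at or above the median and 0 with replicates 1 and 2. For the interaction (28) they were 250 with array weights, 73 with replicate 3 as a batch, 45 with the replicate block, 77 with a trend, 55 at or above the median and 2 with replicates 1 and 2. Leaving out 1 array gave 71 to 263, 129 to 332, 3 to 44 and 6 to 32 for these 4 comparisons, and 0 to 0 for metastin-10 under the GPR54 siRNA label.

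Counts of members called under control siRNA (3) were 1 with only the 2 groups, 5 with replicate 3 as a batch and 0 to 3 on leaving out 1 array (0 without replicate 2 of control siRNA with control peptide). For the siRNA labels with metastin-10 (3) they were 5 with array weights, 1 with only the 2 groups and 3 to 4 on leaving out 1 array. For the interaction (0) they were 4 with array weights, 1 at or above the median, 1 with the replicate block and 2 with a trend.

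On leaving out 1 array, VEGFA 210512_s_at differed between the peptides under control siRNA by -0.82 to -0.69. It was 0.79 between the siRNA labels with metastin-10 when only the 2 groups were fitted, and missed the threshold (adjusted p = 0.0541). Its interaction passed with the replicate block (0.73, adjusted p = 0.0416), array weights (0.75, adjusted p = 0.0386) and a trend (0.73, adjusted p = 0.0393). Between the siRNA labels with metastin-10, 210513_s_at passed under the block (0.75, limma adjusted p = 0.0010). Over all probe sets, same-number arrays correlated least there (-0.15 to 0.26). For 210513_s_at itself the same-number differences were close, at 0.76, 0.74 and 0.75 for replicates 1, 2 and 3. This probe set also passed under the block between the peptides under control siRNA (-0.50, adjusted p = 0.0128). The block changed no call of a member beyond these 3. NRP2 1555468_at passed with array weights between the siRNA labels with metastin-10 (-0.46, adjusted p = 0.0201) and in the interaction (-0.71, adjusted p = 0.0433). The causes were not tested. Counting any probe set of a gene left the list counts as they were. The filter at or above the median kept 13 of 33 members, so dim receptors were not tested there.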
